A study of Mus musculus with 11 samples.

Results

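The rows Hba-a1, Hba-a2, Beta-s, Hbb-b1, Hbb-b2 and Alas2 of the deposited tables hold the adult globin RNAs and the red cell enzyme of haem synthesis, and they are described here in CD11b-enriched cells from irradiated mouse tumours. They were found by symbol and are 6 of the 22068 gene symbols listed for each of 11 libraries. The rows were picked because earlier results of these libraries had shown their RPKM values to differ between libraries, so the members were chosen by these same RPKM values. RPKM is the number of reads of a gene scaled to its length and to the size of the library. The members' levels and differences are therefore a description and carry no test.

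The study compared gene expression in myeloid cells taken from tumours growing under the skin of mice of 3 genotypes on a C57BL/6 background. All the tumours had received 15 Gy of local radiation and were collected 4 days later, so that no group here was left unirradiated. Cells carrying CD11b, an integrin of myeloid cells, were enriched with antibodies and magnetic beads, and total RNA was sequenced without culture. WT (3 libraries) is wild type, TLR9KO (4 libraries) is TLR9-/-, lacking the endosomal receptor for unmethylated DNA, and STAT3KO (4 libraries) is STAT3-/- made as MxCre/Stat3flox. In the MxCre design the recombinase is driven by the interferon-inducible Mx promoter, which acts in blood cells and in several other tissues, so deletion need not be limited to the sorted cells. The labels give no ages and do not state that the libraries of a group came from separate animals. Where p-values appear below they measure only the spread between these libraries, which may be technical.

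Haemoglobin is built from pairs of alpha-type and beta-type chains, each holding a haem. Developing red cells make alpha and beta globin in near balance, supply the haem through the erythroid enzyme ALAS2, and under the control of GATA1 and KLF1 devote most of their RNA to globin. Mature mouse red cells have lost the nucleus, while young ones (reticulocytes) still carry globin RNA. Blood caught in a tumour can bring this RNA into a preparation of white cells, and macrophages also take up old red cells.

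The sequences upstream of Hba-a1, Beta-s and Alas2 are shown because these rows were high and low in the same libraries. Each is the 250 bases before the RefSeq start site on GRCm38.p6, 5′ to 3′ on the gene's strand. Capitals mark 4 short words searched on both strands: GATAA (the core bound by GATA factors), CACCC (bound by KLF factors), CCAAT and the TATA-like word ATATAA. A word on the reverse strand appears as its complement, TTATC or GGGTG, and no matches overlapped.

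Hba-a1, chr11:32283422-32283671, + strand: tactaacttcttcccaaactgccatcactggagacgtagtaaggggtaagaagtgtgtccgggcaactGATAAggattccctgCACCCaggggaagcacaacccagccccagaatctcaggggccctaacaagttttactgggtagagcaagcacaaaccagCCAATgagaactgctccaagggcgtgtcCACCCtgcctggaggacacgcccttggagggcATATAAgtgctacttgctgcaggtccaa
Beta-s (RefSeq Hbb-bs), chr7:103827929-103828178, − strand: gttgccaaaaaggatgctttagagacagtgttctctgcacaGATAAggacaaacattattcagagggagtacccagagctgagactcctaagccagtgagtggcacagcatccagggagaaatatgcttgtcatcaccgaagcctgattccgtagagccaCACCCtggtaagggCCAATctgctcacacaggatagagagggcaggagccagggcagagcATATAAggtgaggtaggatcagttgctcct
Alas2, chrX:150547167-150547416, + strand: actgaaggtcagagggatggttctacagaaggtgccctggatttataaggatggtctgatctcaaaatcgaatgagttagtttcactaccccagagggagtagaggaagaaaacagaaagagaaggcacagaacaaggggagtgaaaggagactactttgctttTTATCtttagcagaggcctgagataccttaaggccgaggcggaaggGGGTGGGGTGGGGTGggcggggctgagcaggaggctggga

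The Hba-a1 window held 1 GATAA, 2 CACCC, 1 CCAAT and 1 ATATAA, and the Beta-s window held 1 of each. The Alas2 window held 1 GATAA and 3 CACCC, all on the reverse strand, and neither of the other words. The Hba-a2 window (chr11:32296242-32296491, + strand) shared a run of 247 identical bases with that of Hba-a1 and held the same words. Among 32851 windows of the same length in the RefSeq table, GATAA was present in 22.6%, CACCC in 52.0%, CCAAT in 33.9% and ATATAA in 9.10%. All 4 words stood together in 0.466% of them. These matches are letters in a window and say nothing of binding in these cells.

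The label of the sort was borne out by the RNA of every library. Itgam, which encodes CD11b, lay between 177 and 328 RPKM and Lyz2, the lysozyme of macrophages and neutrophils, between 1746 and 6427 RPKM. Stat3 stood at 15.7 to 19.7 RPKM in STAT3KO against 70.7 to 76.1 in WT, and Tlr9 at 3.53 to 7.70 in TLR9KO against 20.5 to 41.6 in WT. Between 15123 and 16237 symbols were above 0 per library. The library STAT3KO replicate 2 stood apart from its group in neutrophil granule genes, as given beside the results that rest on it.

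Globin RNA was highest in WT, between the others in STAT3KO and lowest in TLR9KO. Summed over the 5 globin rows, the 3 WT libraries held 206, 56.6 and 222 RPKM, a mean of 161 ± 91.0 (SD, n = 3). The 4 TLR9KO libraries held 1.47, 3.33, 0.61 and 4.04 RPKM (2.36 ± 1.59, SD, n = 4), which is 1.46% of the WT mean. The 4 STAT3KO libraries held 7.17, 68.2, 3.60 and 14.1 RPKM (23.3 ± 30.2, SD, n = 4), or 14.4% of the WT mean. Every TLR9KO library lay below every WT library, whereas STAT3KO replicate 2 lay above WT replicate 2. Without STAT3KO replicate 2 the STAT3KO mean was 8.30 ± 5.36 RPKM (SD, n = 3), or 5.15% of WT. STAT3KO replicate 3 lay below TLR9KO replicate 4, so those groups overlapped too, and the STAT3KO mean was 3.51 times that of TLR9KO without replicate 2. In bulk RNA a smaller number of red cells and less RNA in each of them cannot be told apart. The globin rows made up between 0.00014% and 0.0551% of all summed RPKM in a library.

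Hba-a1, an alpha globin gene, was at 75.1, 21.7 and 82.5 RPKM in WT replicates 1 to 3 (59.7 ± 33.2, SD, n = 3). It was at 0.51, 1.00, 0.31 and 1.44 RPKM in TLR9KO (0.815 ± 0.508, SD, n = 4). In STAT3KO it was at 2.80, 26.1, 1.42 and 3.99 RPKM (8.58 ± 11.7, SD, n = 4). WT replicates 1 and 3 were high, WT replicate 2 was near STAT3KO replicate 2, and the remaining 7 libraries were below 5 RPKM. On the log2(RPKM + 1) scale the difference from WT was -4.89 ± 0.84 (SE) in TLR9KO and -3.14 ± 0.84 in STAT3KO, and the added 1 shrinks the differences of rows this low.

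Hba-a2, the second alpha globin gene, had the same order of libraries as Hba-a1 and was lower than it in each of them except STAT3KO replicate 4. It was at 60.2, 15.2 and 64.2 RPKM in WT (46.5 ± 27.2, SD, n = 3) and at 0.36, 0.70, 0.22 and 1.01 in TLR9KO (0.573 ± 0.355, SD, n = 4). In STAT3KO it was at 1.96, 18.3, 0.99 and 4.35 RPKM (6.39 ± 8.04, SD, n = 4). TLR9KO again lay wholly below WT, and STAT3KO replicate 2 lay between WT replicate 2 and WT replicate 1. The log2 differences from WT were -4.70 ± 0.81 (SE) in TLR9KO and -3.01 ± 0.81 in STAT3KO.

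Beta-s, the name the files use for the adult beta globin that RefSeq now calls Hbb-bs, was the most abundant beta row per length. It was at 50.8, 14.4 and 54.4 RPKM in WT (39.9 ± 22.1, SD, n = 3) and at 0.51, 1.63, 0.08 and 0.81 in TLR9KO (0.758 ± 0.654, SD, n = 4). In STAT3KO it was at 2.15, 18.7, 0.92 and 4.80 RPKM (6.65 ± 8.20, SD, n = 4). The groups split as they did for the alpha rows, with STAT3KO replicate 2 above WT replicate 2. The log2 differences from WT were -4.41 ± 0.82 (SE) in TLR9KO and -2.79 ± 0.82 in STAT3KO.

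Hbb-b1 and Hbb-b2, symbols given to the adult beta-major and beta-minor genes, lay below Beta-s per length in every WT library. Hbb-b1 was at 9.69, 2.18 and 12.6 RPKM in WT, at 0.02, 0.00, 0.00 and 0.17 in TLR9KO and at 0.06, 4.87, 0.06 and 0.77 in STAT3KO. Its value in STAT3KO replicate 2 exceeded that of WT replicate 2, while the other 3 STAT3KO libraries lay below all WT libraries. Hbb-b2 was at 9.77, 3.22 and 8.07 RPKM in WT, at 0.07, 0.00, 0.00 and 0.61 in TLR9KO and at 0.20, 0.20, 0.21 and 0.23 in STAT3KO. For Hbb-b2 the replicate of STAT3KO that was high in the other globin rows was not raised, and the group mean was 0.21 ± 0.014 RPKM (SD, n = 4) against 7.02 ± 3.40 in WT (SD, n = 3). The log2 differences of Hbb-b1 from WT were -2.89 ± 0.70 (SE) in TLR9KO and -2.06 ± 0.70 in STAT3KO, and those of Hbb-b2 were -2.70 ± 0.32 and -2.62 ± 0.32. Which sequence these 2 rows count is not given in the sources used here.

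Alas2, which encodes the erythroid enzyme for the first step of haem synthesis, had the lowest mean of the members over the 11 libraries, although in TLR9KO Hbb-b1 was lower (means of 0.0475 and 0.0625 RPKM). It was at 1.58, 0.35 and 1.56 RPKM in WT (1.16 ± 0.704, SD, n = 3), at 0.05, 0.09, 0.03 and 0.08 in TLR9KO and at 0.04, 0.18, 0.04 and 0.05 in STAT3KO. WT replicate 2 was the lowest WT library, as in each globin row, and STAT3KO replicate 2 the highest STAT3KO library, as in each globin row but Hbb-b2. Both knockouts lay wholly below WT for Alas2 and overlapped each other. Alas2 had an overall mean under 1 RPKM and was the only member below the filter used for the tests across all genes. The log2 differences from WT were -0.97 ± 0.21 (SE) in TLR9KO and -0.95 ± 0.21 in STAT3KO. Without STAT3KO replicate 2 its STAT3KO mean was 3.72% of the WT mean instead of 6.66%.

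**Figure D1:**
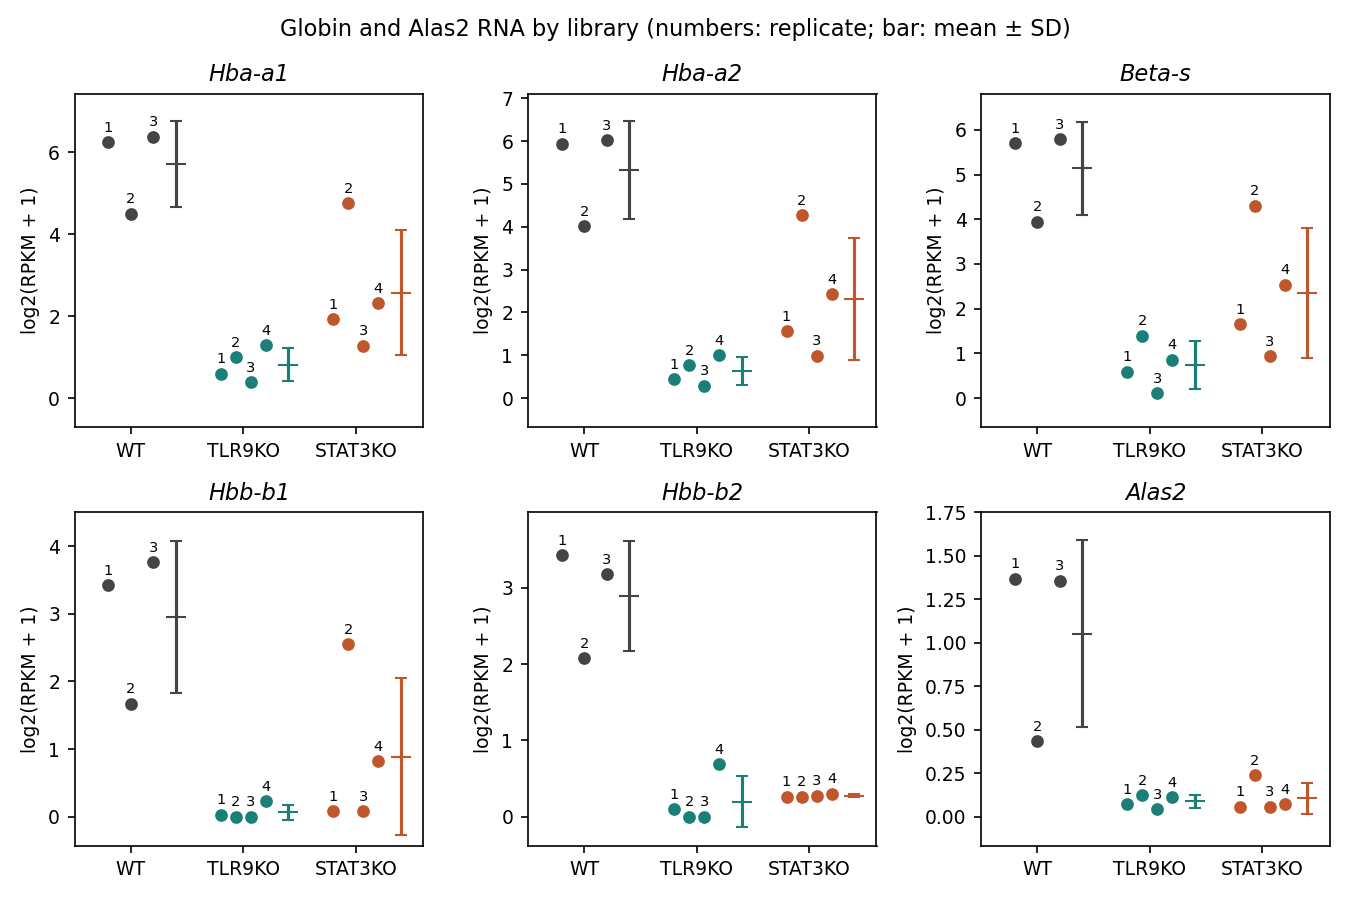
Level of each of the 6 rows as log2(RPKM + 1) in the 11 libraries (points, numbered by replicate) with group mean ± SD (bars beside the points), on a separate vertical scale for each row. All TLR9KO points lie below all WT points in each panel, and STAT3KO replicate 2 stands above the other STAT3KO libraries in each panel except Hbb-b2.

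All 6 members were lower in every TLR9KO library than in every WT library, which was the case for 13.3% of the 10557 genes tested. In STAT3KO, 2 of the 6 members, Hbb-b2 and Alas2, were lower in every library than in every WT library, against 16.9% of genes tested. Between STAT3KO and TLR9KO, 0 of the 6 were wholly higher in STAT3KO, against 16.4% of genes tested. Because the rows were chosen for these differences, nothing is read from the counts.

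STAT3KO lay above TLR9KO on average, with overlap of the groups in every row. The log2 difference of STAT3KO minus TLR9KO was 1.75 ± 0.78 (SE) for Hba-a1, 1.69 ± 0.75 for Hba-a2 and 1.62 ± 0.76 for Beta-s. It was 0.82 ± 0.64 for Hbb-b1, 0.08 ± 0.29 for Hbb-b2 and 0.02 ± 0.19 for Alas2. Averaged over the 6 members it was 1.00 ± 0.53, 0.56 without STAT3KO replicate 2 and 1.77 with a pseudocount of 0.1 in place of 1. The comparisons with WT share the same 3 WT libraries; there the average over the 6 members was -3.42 ± 0.58 (TLR9KO minus WT, -5.20 with a pseudocount of 0.1) and -2.43 ± 0.58 (STAT3KO minus WT).

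Ranked by summed globin RPKM, the order of libraries was WT replicate 3, WT replicate 1, STAT3KO replicate 2, WT replicate 2, STAT3KO replicates 4 and 1, TLR9KO replicate 4, STAT3KO replicate 3, and TLR9KO replicates 2, 1 and 3. WT replicate 2 held roughly the globin level of STAT3KO replicate 2 and so stood between the other WT libraries and the rest. In STAT3KO replicate 2 the neutrophil granule genes Ngp, Camp and Ltf, named after their values were seen, were at 95.0, 21.9 and 20.2 RPKM. In the other 10 libraries none of these genes was above 0.94 RPKM. S100a8, a calcium-binding protein abundant in neutrophils, was at 194 RPKM in STAT3KO replicate 2 and between 2.21 and 18.6 RPKM elsewhere. The listed neutrophil markers Mmp8, Cxcr2, Csf3r and Mpo were instead highest in other libraries. Csf3r had its lowest value in STAT3KO replicate 2 (12.98 RPKM), and Mmp8 was at 57.1 RPKM there against 207 in TLR9KO replicate 1. The part of neutrophils in the globin level of that library was not tested. WT replicates 1 and 3, the libraries with the most globin RNA, had no such level, with Ngp at 0.11 and 0.94 RPKM.

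**Figure D2:**
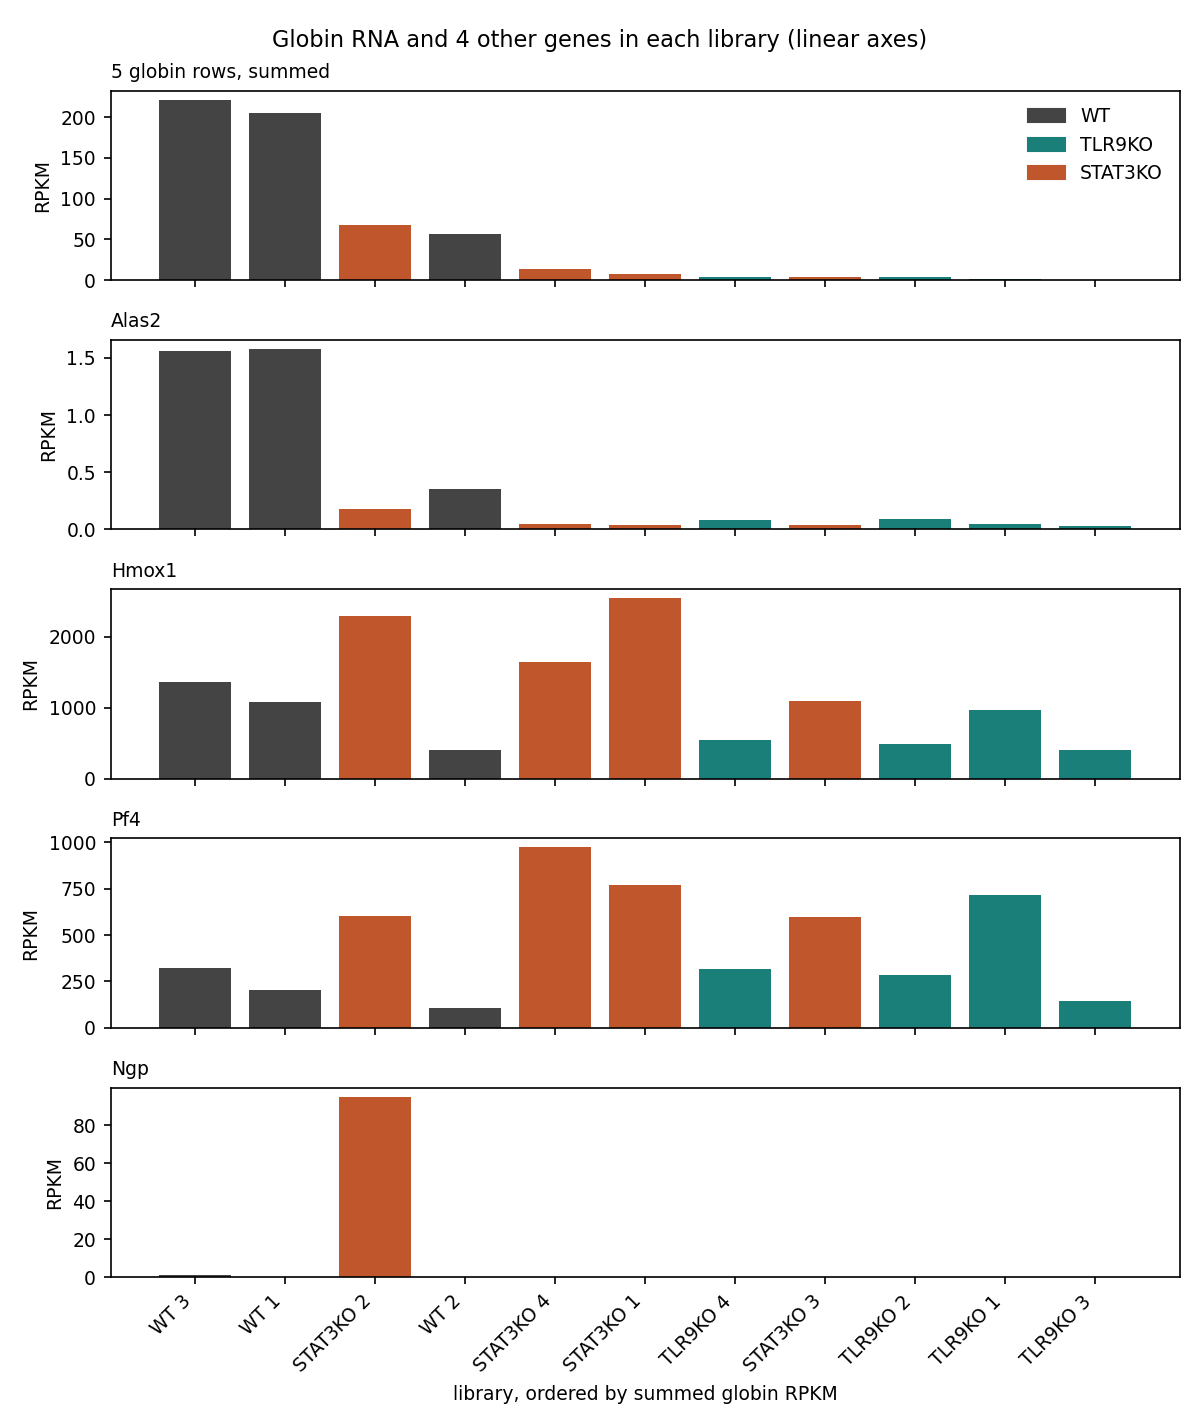
Bars give RPKM (linear axes from 0) of the 5 globin rows summed, Alas2, Hmox1, Pf4 and Ngp in each library, ordered by summed globin RPKM and coloured by group. Globin RNA runs from 222 RPKM in WT replicate 3 to 0.61 in TLR9KO replicate 3, Alas2 is highest in the same WT libraries, and Ngp stands at 95.0 RPKM in STAT3KO replicate 2 against at most 0.94 elsewhere.

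The ratio between the alpha rows was the same in most libraries. Hba-a1 over Hba-a2 fitted a single ratio, between 1.4279 and 1.4289 once rounding of the deposited values to 2 decimals is allowed for, in 8 of 11 libraries. The other libraries were WT replicate 1 at 1.25, WT replicate 3 at 1.29 and STAT3KO replicate 4 at 0.917. The 2 transcripts are near copies: in the GENCODE M21 annotation, 537 of 538 aligned bases are identical, with a longest identical run of 415 bases. Reads from that stretch fit both genes, and how the deposited tables divide such reads is not given in the sources used here. The separate levels of Hba-a1 and Hba-a2 are therefore uncertain. With reads that fit both genes, their shared order across libraries does not amount to 2 separate measurements.

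Beta-s over Hba-a1 was 0.677, 0.666 and 0.660 in the 3 WT libraries, although WT replicate 2 held much less globin RNA than the others. In STAT3KO it was 0.768, 0.717, 0.648 and 1.20, and in TLR9KO it was 1.00, 1.63, 0.258 and 0.563. The TLR9KO ratios were the most scattered of the 3 groups. Read depth estimated from the steps between low values, about 30000000 to 53450000 reads per library, puts Beta-s in TLR9KO at roughly 2.0 to 33.9 reads per library, against 316 to 1287 in WT. Summed alpha over summed beta rows was 1.86 to 1.95 in WT, 1.44 to 2.03 in STAT3KO and 1.04 to 6.62 in TLR9KO.

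Hbb-b1 over Hbb-b2 did not hold a fixed ratio. Of the 9 libraries in which it could be formed, 4 shared a ratio between 0.2683 and 0.2893, and the highest was 24.4 in STAT3KO replicate 2. In that library Hbb-b1 was at 4.87 RPKM and Hbb-b2 at 0.20. The current Hbb-bs and Hbb-bt transcripts match at 95.0% of 582 aligned bases, with an identical run of 430 bases, so reads can be shared between beta rows as well.

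Alas2 RPKM per 1000 RPKM of globin was 6.18 to 7.68 in WT, where both were well above the lowest values. It was 2.64 to 11.1 in STAT3KO and 19.8 to 49.2 in TLR9KO. At the estimated depths Alas2 rests on roughly 2.4 to 6.1 reads in each TLR9KO library and on 3.3 to 11.8 in each STAT3KO library, so those ratios have wide counting error.

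**Figure D3:**
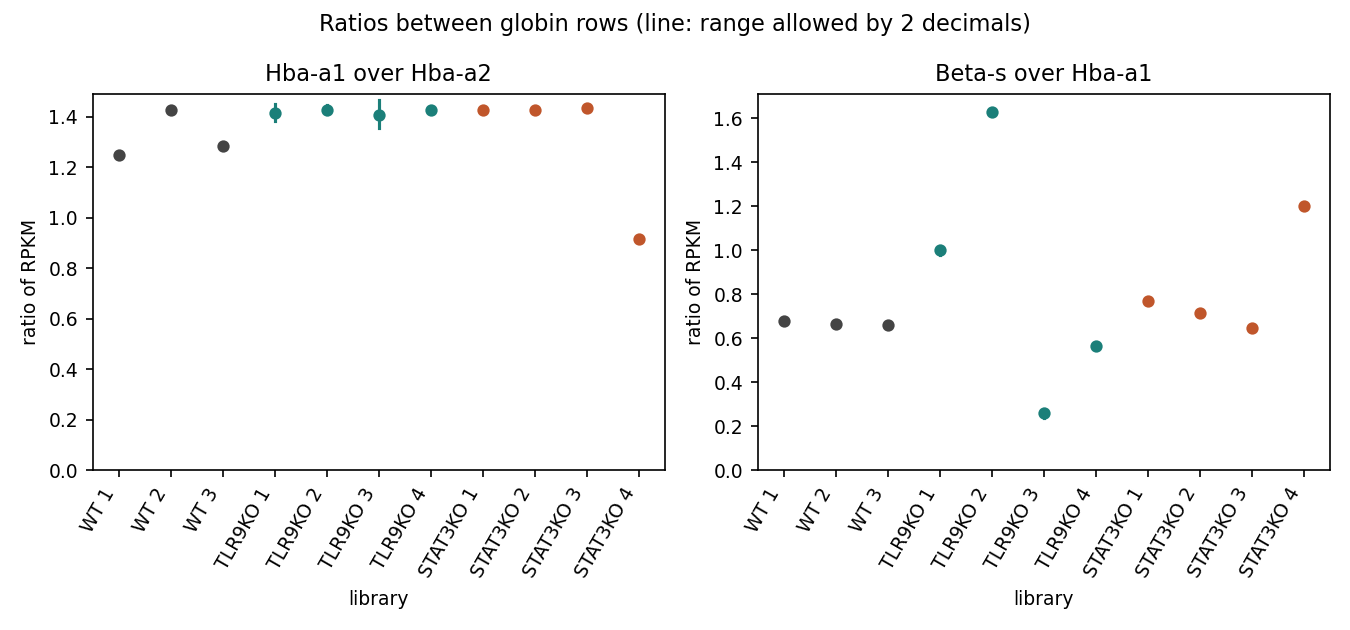
Ratio of RPKM of Hba-a1 to Hba-a2 (left) and of Beta-s to Hba-a1 (right) in each library, coloured by group; lines show the range that rounding to 2 decimals allows. The left ratio is near 1.43 in 8 libraries, and the right ratio is within 0.660 to 0.677 in WT but runs from 0.258 to 1.63 in TLR9KO.

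Other genes of the red cell were mostly too low to follow the globins. Of 32 listed red cell genes besides the members, 30 were in the tables, 20 of them below 1 RPKM in every library, and 9 passed the filter. Slc4a1 (the band 3 anion exchanger) and Hemgn were each at most 0.05 RPKM. Slc4a1 reached its highest value, 0.05 RPKM, in WT replicate 1. Car2, a carbonic anhydrase, lay between 0.22 and 0.70 RPKM. These genes are of nucleated precursors and red cell membranes, and their levels were far below the 206 RPKM of globin in the same WT library.

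Of the 9 red cell genes tested, 1 rose and 0 fell in STAT3KO against WT, with 2 at an unadjusted p under 0.05 (limma, as in all tests here, with Benjamini-Hochberg adjustment). Among all genes tested, 29.2% rose and 14.8% fell in that comparison. The gene was Tmod1, which caps actin filaments in the red cell membrane and is also made elsewhere, at 2.75 RPKM in WT and 6.34 in STAT3KO (log2 difference 1.02 ± 0.32, SE, adjusted p = 0.0249 by limma). The call was lost without the filter, without WT replicate 2 and without STAT3KO replicate 1 or 4. Against TLR9KO, 1 of 9 rose, again Tmod1 (1.25 ± 0.30, adjusted p = 0.0137 by limma), and 0 fell, against 13.4% and 9.46% of all genes, with 4 at an unadjusted p under 0.05. In TLR9KO against WT, 0 rose and 1 fell, Epb4.1 (protein 4.1 of the membrane skeleton, -0.33 ± 0.11, adjusted p = 0.0472 by limma), against 20% and 10.6% of all genes. This call was lost in 12 of 17 alternatives, and 2 of the 9 had an unadjusted p under 0.05. The list's median log2 difference was 0.19 in STAT3KO against WT, 0.10 in TLR9KO against WT and 0.07 in STAT3KO against TLR9KO. The median of all genes tested was 0.09, 0.04 and 0.06 in the same order.

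Red cell genes that did not pass kept levels unlike those of the globins. Gypc (glycophorin C) was at 7.24 to 7.82 RPKM in WT, 6.25 to 8.30 in TLR9KO and 7.71 to 10.3 in STAT3KO. Bpgm, which makes the haemoglobin effector 2,3-bisphosphoglycerate, was at 3.55 to 5.23 RPKM over all 11 libraries. Slc25a37 (mitoferrin-1, the iron carrier of erythroid mitochondria) was at 3.76 to 5.14 RPKM in WT and 4.96 to 7.17 in TLR9KO. None of these groups of values was ordered as WT above TLR9KO in the way the members were.

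All 12 listed haem synthesis genes other than Alas2 passed the filter and were tested. In STAT3KO against WT 1 rose and 1 fell (29.2% and 14.8% of all genes tested), in TLR9KO against WT 2 rose and 2 fell (20% and 10.6%), and in STAT3KO against TLR9KO 1 rose and 1 fell (13.4% and 9.46%). Alas1, the housekeeping counterpart of Alas2, was at 45.6 to 58.2 RPKM in WT, 16.4 to 30.0 in TLR9KO and 23.9 to 36.4 in STAT3KO. It fell in both knockouts, by 1.08 on the log2 scale in TLR9KO (SE 0.19, adjusted p = 0.00223 by limma) and by 0.69 in STAT3KO (SE 0.19, adjusted p = 0.0132 by limma, lost without WT replicate 1). Slc25a38, the glycine carrier for haem synthesis, rose in both against WT (0.37 and 0.39), and Abcb6, a porphyrin transporter, fell in TLR9KO (-0.66) and was higher in STAT3KO than in TLR9KO (0.60). Those 4 calls had adjusted p between 0.0346 and 0.0471 by limma, and each was lost in 7 to 11 of 17 alternatives. Fech (ferrochelatase, the last step) was at 9.34 to 12.3 RPKM throughout, with adjusted p of 0.283 or more by limma.

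The erythroid regulators Gata1 and Klf1 were near 0. Gata1 was between 0.00 and 0.17 RPKM and Klf1 between 0.02 and 0.19 RPKM in the 11 libraries. The highest Gata1 values, 0.17 and 0.16 RPKM, were in WT replicates 2 and 3, and the highest Klf1 value, 0.19, was in STAT3KO replicate 2. Gfi1b, also below the filter, was at 2.05, 1.60 and 1.02 RPKM in WT, 0.38 to 1.45 in TLR9KO and 0.27 to 0.39 in STAT3KO. Epor, below the filter too, went the other way, at 0.14 to 0.35 RPKM in WT and 0.42 to 0.97 in STAT3KO. Of 5 regulators tested, 1 rose and 0 fell in STAT3KO against WT (29.2% and 14.8% of all genes tested), 1 rose and 1 fell in TLR9KO against WT (20% and 10.6%), and 2 rose and 0 fell in STAT3KO against TLR9KO (13.4% and 9.46%). Lmo2, a bridging protein of the GATA1 complex that many blood cells make, rose in STAT3KO (0.65 ± 0.13, adjusted p = 0.002 by limma) and in TLR9KO (0.47 ± 0.13, adjusted p = 0.016 by limma, lost without WT replicate 1 or 3). Zfpm1 (FOG-1, the GATA1 cofactor) fell in TLR9KO by 0.58 on the log2 scale (adjusted p = 0.0115 by limma, lost without WT replicate 1 and with a GC and length correction). Nfe2, a factor of erythroid and platelet genes, was 0.89 ± 0.21 higher in STAT3KO than in TLR9KO (adjusted p = 0.0132 by limma), with 6.01 RPKM in STAT3KO replicate 2 and 1.13 to 3.22 elsewhere. Ldb1, which joins distant enhancers to globin promoters, was 0.32 higher in the same comparison (adjusted p = 0.0307 by limma, lost in 8 of 17 alternatives). Tfrc, the transferrin receptor, did not pass in any comparison and was at 9.54 to 16.4 RPKM in WT, 7.19 to 14.7 in TLR9KO and 7.15 to 10.0 in STAT3KO.

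**Figure D4:**
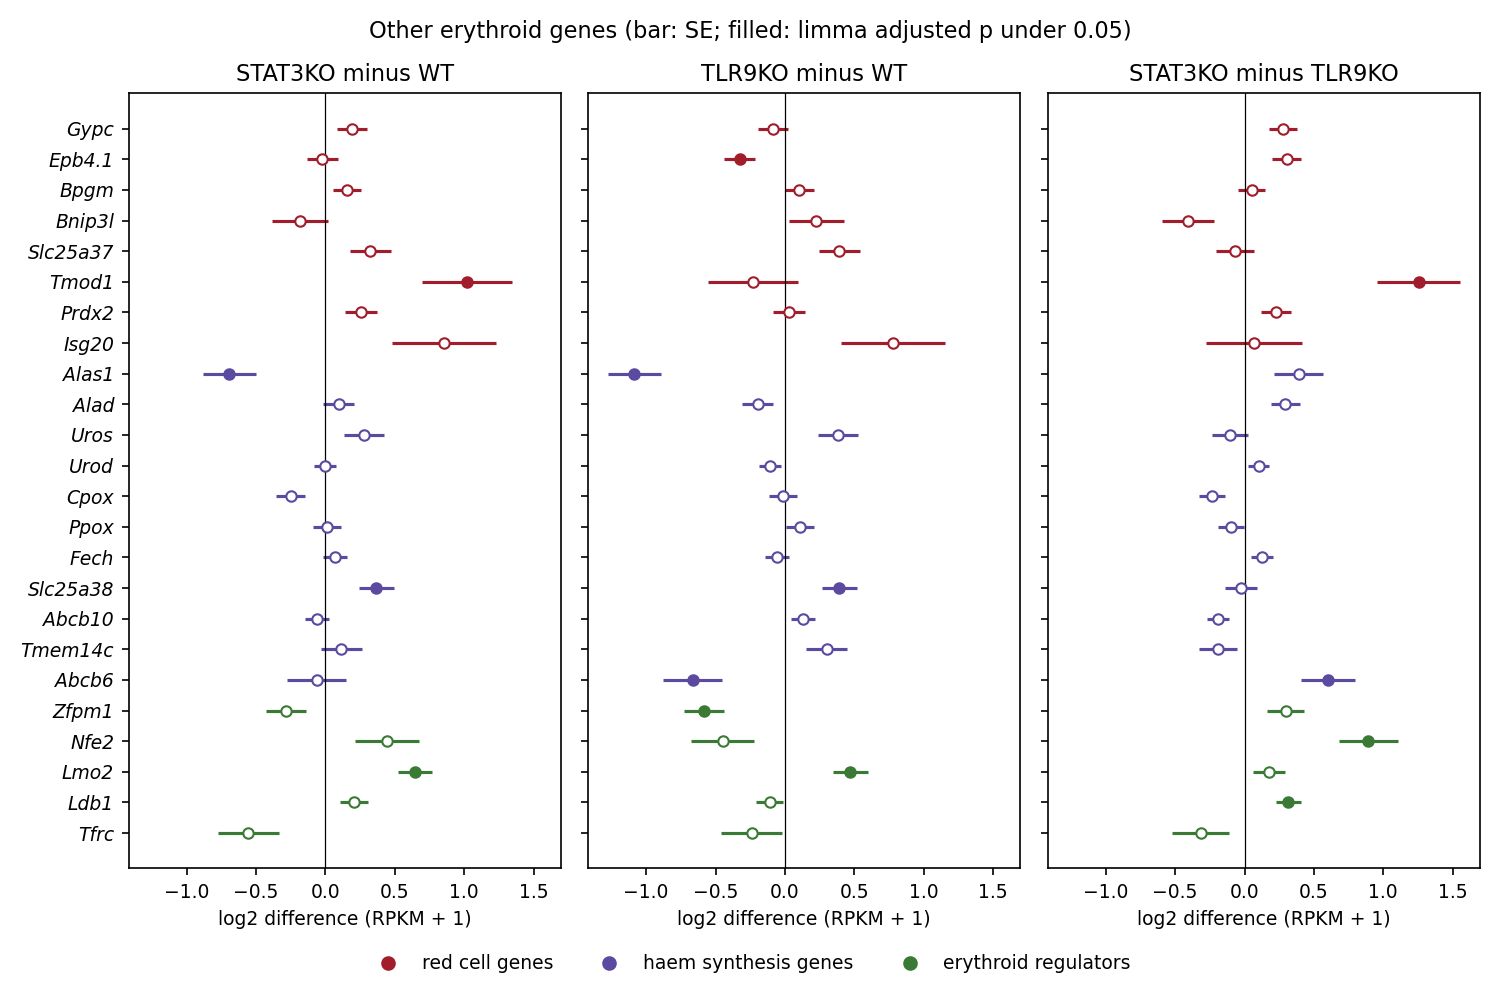
Log2 difference ± SE of red cell, haem synthesis and regulator genes that were tested, in the 3 comparisons; filled points passed limma at an adjusted p under 0.05. Differences lie between -1.08 (Alas1) and 1.25 (Tmod1), and the points of a list lie on both sides of the line.

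The embryonic and other minor globins, Hba-x, Hbb-y, Hbb-bh1 and Hbq1b, were listed at 0 in every library, and Hbq1a at 0.05 and 0.09 RPKM in WT replicates 1 and 2 and at 0 in the other 9. Of the globins outside the red cell, Mb (myoglobin) and Ngb (neuroglobin) were at most 0.03 and 0.05 RPKM. Cygb (cytoglobin, found in fibroblast-like cells), the only one tested, was at 4.47, 7.17 and 0.04 RPKM in WT, 0.08 to 0.16 in TLR9KO and 0.08 to 0.75 in STAT3KO. It fell against WT in both knockouts (adjusted p = 0.0334 and 0.0465 by limma), although WT replicate 3 lay below every knockout library, and the calls were lost in 7 and 11 of 15 alternatives. Cygb thus did not follow the globins in WT, where replicate 3 held the most globin RNA.

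Genes that take up red cells and handle their haem and iron moved in both directions. Of 15 tested, 5 rose and 3 fell in STAT3KO against WT (29.2% and 14.8% of all genes tested), 1 rose and 1 fell in TLR9KO against WT (20% and 10.6%), and 8 rose and 1 fell in STAT3KO against TLR9KO (13.4% and 9.46%). Slc40a1 (ferroportin, the iron exporter) was at 7.62, 1.89 and 8.40 RPKM in WT, 2.59 to 8.23 in TLR9KO and 22.0 to 64.6 in STAT3KO. It rose in STAT3KO by 2.85 ± 0.47 on the log2 scale against WT (adjusted p = 0.000803 by limma) and by 3.00 ± 0.44 against TLR9KO (adjusted p = 0.00125 by limma). Spic, the factor that red pulp macrophages need, was at 0.31 to 0.64 RPKM in WT and 3.48 to 7.43 in STAT3KO (1.89 ± 0.22, adjusted p = 9.96e-05 by limma). Blvrb (biliverdin reductase B) rose in STAT3KO against WT by 1.12 ± 0.17 (adjusted p = 0.000577 by limma) and in TLR9KO by 0.51 (adjusted p = 0.0459 by limma, lost in 12 of 17 alternatives). Blvra (biliverdin reductase A) rose in STAT3KO by 0.75 (adjusted p = 0.00142 by limma) and Trf (transferrin) fell by 0.74 (adjusted p = 0.0198 by limma), each call being lost in 1 of 17 alternatives.

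Hmox1 (haem oxygenase-1, which opens the haem ring) was at 1074, 408 and 1363 RPKM in WT, with WT replicate 2 lowest as for the globins. It was at 406 to 969 RPKM in TLR9KO and 1089 to 2546 in STAT3KO. Hmox1 was 1.65 ± 0.40 higher in STAT3KO than in TLR9KO on the log2 scale (adjusted p = 0.0148 by limma) and did not pass against WT (1.09 ± 0.43, adjusted p = 0.062 by limma). Slc48a1, which carries haem out of the phagosome, was 0.73 ± 0.16 higher in STAT3KO than in TLR9KO (adjusted p = 0.00956 by limma). The ferritin genes Fth1 and Ftl1 were higher in STAT3KO than in TLR9KO by 0.97 ± 0.24 and 0.77 ± 0.19 (adjusted p = 0.0159 and 0.0137 by limma), and both calls were lost without the filter, that of Ftl1 also with a GC and length correction. Fth1 also rose against WT (0.78, adjusted p = 0.0313 by limma, lost in 7 of 17 alternatives). Lrp1, a receptor for haem bound to haemopexin, had the group order of the globins, at 183.6 to 200.7 RPKM in WT, 114 to 162 in STAT3KO and 90.3 to 154 in TLR9KO. It fell in TLR9KO (-0.70 ± 0.17, adjusted p = 0.0104 by limma, lost with a GC and length correction) and in STAT3KO (-0.46, adjusted p = 0.0443 by limma, lost in 10 of 17 alternatives). In WT, Slc40a1 and Hmox1 had the lowest library in common with the globins, but across the groups STAT3KO, with 14.4% of the globin RNA of WT, had the highest mean of both.

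Platelets travel with red cells in blood, and their markers were read beside the globins. Summed platelet marker RPKM was 126 to 437 in WT, 155 to 781 in TLR9KO and 612 to 1021 in STAT3KO, mostly from Pf4. The other 3 platelet markers tested, Ppbp, Itgb3 and F2rl2, had their highest mean in WT. Pf4 (platelet factor 4, also made by macrophages) was at 202, 109 and 322 RPKM in WT and 600 to 974 in STAT3KO (1.91 ± 0.48, adjusted p = 0.00797 by limma, lost with a GC and length correction). Ppbp, a more platelet-restricted chemokine, was at 38.0, 5.96 and 102 RPKM in WT, 4.65 to 54.7 in TLR9KO and 7.45 to 42.4 in STAT3KO and passed in no comparison. Itgb3, an integrin subunit of platelets and other cells, averaged 5.93 RPKM in WT, 3.75 in TLR9KO and 4.51 in STAT3KO and passed in no comparison. F2rl2, a thrombin receptor, fell in STAT3KO against WT (-1.92 ± 0.25, adjusted p = 0.000185 by limma). Of the 4 platelet markers tested, 1 rose and 1 fell in STAT3KO against WT (29.2% and 14.8% of all genes tested). Against TLR9KO, 0 rose and 1 fell in STAT3KO (13.4% and 9.46%). In TLR9KO against WT 0 passed (20% rose and 10.6% fell among all genes), and 0 had an unadjusted p under 0.05. In WT, Ppbp and the summed globin rows were highest in replicate 3 and lowest in replicate 2, but so were Hmox1, Pf4 and S100a8. Outside WT the likeness did not hold throughout. TLR9KO replicate 1 had Ppbp at 54.7 RPKM with only 1.47 RPKM of summed globin.

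The tested genes whose levels were most like the members' average across all 11 libraries included none of the listed erythroid genes that passed the filter. Listed genes below the filter, among them Gata1, Klf1, Gfi1b and Slc4a1, could not appear in this ranking. Of 10552 other genes tested, Tbl3, a ribosome assembly factor, had the highest Pearson r with the average log2(RPKM + 1) of the 6 members, 0.98 over 11 libraries. It was followed by the elongation factor Eef2, Slc35a4, the condensin subunit Ncaph2, Lrrc61 and Rnf187, at 0.968 to 0.971. Tbl3 was at 19.1 to 22.8 RPKM in WT, 13.0 to 14.8 in TLR9KO and 14.7 to 19.1 in STAT3KO, so its span was far smaller than that of the globins. After subtraction of group means the highest r were those of Wdr34 (0.959), Smtn (0.955), Cdt1 (0.953), Slc35a4 (0.949), Abtb1 (0.945) and 2410016O06Rik (0.94). All the points share the libraries, their depth and their base composition, and these r are given without a test. The GC content of these 11 genes ran from 54.5% to 61.4%, against a median of 49.8% over the genes tested. Hba-a1 stands at 57.2%, Hba-a2 at 56.9%, Alas2 at 53.3% and Beta-s at 51.3%. The part of base composition in the likeness was not tested.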

How the data were processed

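The authors deposited one table per library of RPKM values per gene symbol, rounded to 2 decimals; the unit is named per the file headers, except in TLR9KO replicate 4, whose header names none. Per the submitters' processing notes, CASAVA 1.7, TopHat 1.3.1, Bowtie 0.12.7 and Partek were used with the mm9 build. Neither the annotation nor the handling of reads that fit several genes is given in the sources used here.

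The values were joined by symbol. The 10557 of 22068 symbols whose mean over 11 libraries reached 1 RPKM were tested with limma 3.58.1 (R 4.3.3) on log2(RPKM + 1), with 3 group means, a trended prior, two-sided tests and Benjamini-Hochberg adjustment over all genes tested (threshold 0.05). This procedure was tested on simulated data. Errors of the members' log2 differences come from the ordinary residual spread over all 3 groups. Total read numbers are not given with the deposited values. Depth was estimated from the steps between low values of 27 to 48 microRNA gene rows per library. At the depth taken, 71.9% to 95.7% of them were within 0.15 of a whole read, against a median of 14.7% to 25.0% over all depths scanned. The depth was chosen for a high share of whole reads, so that share is no separate check. It serves only for approximate read numbers. Tables were handled with Python 3.11.15 and pandas 2.3.3.

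The members and the gene lists (red cell, haem synthesis, regulators, other globins, haem clearance, platelet, neutrophil, B cell, T and NK cell, basophil and mast cell, endothelial, fibroblast and myeloid) were chosen with earlier results of these data known. Named from the erythroid, clearance and platelet lists were up to 6 genes per list and comparison past the threshold, plus set key genes whether they passed or not, and at most 3 per marker list of other cells. Gfi1b, Epor, the neutrophil markers besides Retnlg and the endothelial markers besides Pecam1 were named after their values were seen. The 6 most similar genes were named for each measure of likeness. Alternatives were a pseudocount of 0.1, no filter, median-ratio scaling, a replicate block, no trend, leaving out each library, and a GC and length correction chosen after seeing the data (GENCODE M21, matched for 98.8% of genes tested). Promoters are RefSeq's on GRCm38.p6 and were found for 4 of the 6 members. Single values of some genes on these lists are not reported here, although the counts include them.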

Additional observations from a re-analysis of the deposited data

Results flagged for a closer look

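In 14 of 105 groups of 4 libraries examined (members and named genes), the highest or lowest library stood far from the others, by a gap past Dixon's 95% critical value. For independent, evenly spread values chance gives about 1 in 20. These rows are skewed, vary together and were in part chosen by the same values, so the gaps only single out libraries and are no test. Among the members, STAT3KO replicate 2 was far above its group for Hba-a1 (26.1 RPKM, next 3.99), Hbb-b1 (4.87, next 0.77), Alas2 (0.18, next 0.05) and the sum of the 5 globin rows (68.15, next 14.14). TLR9KO replicate 4 was far above its group for Hbb-b1 (0.17 RPKM, next 0.02) and Hbb-b2 (0.61, next 0.07).

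Among other genes, Retnlg was at 67.56 RPKM in STAT3KO replicate 2 (next 9.61). In TLR9KO replicate 1, Cd68 was at 1089.5 RPKM, Col1a2 at 10.26 and Ftl1 at 7168.79, each the highest of its group. Col1a2 was lowest in STAT3KO replicate 1, at 3.26 RPKM. Lck was highest in TLR9KO replicate 3 (2.18 RPKM) and STAT3KO replicate 3 (2.06). Slc4a1 was at 0.01 RPKM in TLR9KO replicate 2 and listed at 0 in the other TLR9KO libraries.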

How the results depend on the processing

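The direction of every member's difference from WT was the same under each alternative run for the members. These were a pseudocount of 0.1, median-ratio scaling, a replicate block and leaving out each library. The members' differences were not computed with the GC and length correction. With a pseudocount of 0.1 the average log2 difference of the 6 members was -3.43 in STAT3KO and -5.20 in TLR9KO against WT, and 1.77 between them. Leaving out single libraries gave -2.97 to -2.14 (STAT3KO minus WT), -3.96 to -3.14 (TLR9KO minus WT) and 0.56 to 1.27 (STAT3KO minus TLR9KO). The single reversal was Alas2 in STAT3KO minus TLR9KO, at 0.0185 with all libraries and between -0.0259 (without STAT3KO replicate 2) and 0.0348 (without STAT3KO replicate 1) with a library left out.

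Over all genes, 4648 were called for STAT3KO against WT, 3229 for TLR9KO against WT and 2409 between the knockouts, and the counts below are given in that sequence of comparisons. Leaving out single libraries gave 3673 to 4878, 1989 to 3595 (lowest without WT replicate 1) and 1581 to 2709 (lowest without TLR9KO replicate 4). The GC and length correction left 1649 in TLR9KO minus WT. Higher and lower calls, 3083 and 1565, 2107 and 1122, and 1410 and 999, became 2338 and 2206, 1780 and 1504, and 1007 and 1193 with median-ratio scaling, and 2101 and 1922, 934 and 715, and 1041 and 1052 with the GC and length correction. The cause was not tested.

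Red cell genes called in STAT3KO minus WT numbered 2 with the GC and length correction. In TLR9KO minus WT 0 were called without the filter or without the trend, and in STAT3KO minus TLR9KO 2 were called without the filter, with median-ratio scaling and with the GC and length correction. Leaving out single libraries gave 0 to 3, 0 to 2 and 1 to 3. Deviations of libraries with the same replicate number correlated at -0.29 to 0.49 over 10 pairs, only 4 over 0.1, so the numbers are not taken to pair them; 2 of 11 libraries correlated best with one of their own number. With a replicate block, 4074, 2662 and 1879 genes and 2, 0 and 1 red cell genes were called.

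Depth limits the members most in TLR9KO, where each globin row rests on few reads, and near-identical copies limit the split between alpha rows and between beta rows.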

Other observations

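Markers of other cells that the enrichment could hold were summed per library. For the counts of calls in this section, the shares of all genes tested were as follows. In STAT3KO against WT 29.2% rose and 14.8% fell, and in TLR9KO against WT 20% rose and 10.6% fell. In STAT3KO against TLR9KO 13.4% rose and 9.46% fell. Neutrophil markers summed to 58.7 to 180 RPKM in WT, 68.5 to 249 in TLR9KO and 81.4 to 630 in STAT3KO, highest in replicate 2; of 9 tested, 1 (Retnlg) was higher in STAT3KO than in TLR9KO by limma (adjusted p = 0.0348, lost in 5 of 17 alternatives), and 0 passed against WT, where 1 (STAT3KO) and 0 (TLR9KO) had an unadjusted p under 0.05. B cell markers summed to 10.0 to 18.8 RPKM over all libraries; of 2 tested, Cd79b rose in STAT3KO, from 0.447 RPKM in WT to 3.10 (adjusted p = 0.000622 by limma), and was higher there than in TLR9KO (adjusted p = 0.00504 by limma), while 0 passed in TLR9KO against WT, also unadjusted. T and NK cell markers summed to 2.19 to 28.3 RPKM; of 3 tested, Lck fell in STAT3KO against WT (adjusted p = 0.0462 by limma, lost in 8 of 17 alternatives), and 0 passed in TLR9KO against WT or between the knockouts (1 and 0 at an unadjusted p under 0.05). Basophil and mast cell markers stayed at or under 0.63 RPKM in sum, and 0 could be tested.

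Of 3 endothelial markers tested, Pecam1, which some leukocytes and platelets also carry, fell in STAT3KO from 11.2 to 3.65 RPKM (adjusted p = 0.00836 by limma), and 0 passed in TLR9KO against WT or between the knockouts (0 and 2 at an unadjusted p under 0.05). Listed endothelial markers below the filter went the other way. Cdh5 was at 0.38 to 0.61 RPKM in WT and 0.65 to 1.33 in STAT3KO, and Esam at 0.08 to 0.43 and 0.59 to 1.42. Tie1 and Emcn, lower still, also had higher means in STAT3KO than in WT, while Kdr, which was tested, had a lower mean there. All 3 fibroblast markers tested rose against WT in both knockouts, as did 29.2% (STAT3KO) and 20% (TLR9KO) of all genes tested. Col1a1 was at 0.78 to 1.53 RPKM in WT, 3.88 to 14.8 in TLR9KO and 5.84 to 11.7 in STAT3KO. Between the knockouts 0 of the 3 passed by limma, also unadjusted. Of 12 myeloid markers, 4 rose and 2 fell in STAT3KO against WT (29.2% and 14.8% of all genes tested) and 2 rose and 2 fell against TLR9KO (13.4% and 9.46%). Of these 10 calls, 6 were lost in at least 1 of 17 alternatives, among them Itgam and Cd68 against WT (11 and 6) and Cd14 against TLR9KO (9). In TLR9KO against WT 0 of the 12 passed limma's adjusted threshold, and 4 had an unadjusted p under 0.05.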
